A study of Mus musculus with 6 samples.

Results

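The 7 interferon regulatory factors Irf1, Irf2, Irf3, Irf5, Irf7, Irf8 and Irf9 were followed in primary mouse embryo fibroblasts given lipopolysaccharide (LPS) with or without an earlier heat shock. They were found as every probe set whose single gene symbol was one of these names, which gave 12 probe sets of the 45101 on the array. All 7 genes, of 12917 genes tested in all, passed the filter on low signal, Irf8 just above it, on the 41.0th percentile of mean log2 signal where the filter stood at the 40th. The brightest probe set of a gene gave its main value and the others served as a check.

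Each fibroblast culture was grown from 1 ICR mouse embryo at embryonic day 15.5, and 2 such cultures from independent embryos were used. Control cells stayed at 37 °C with no agent. The LPS group received LPS of E. coli 0127:B8 at 1 μg/ml for 4 h. The HS+LPS group was held at 42 °C for 1 h before the same LPS treatment. Both cultures went through all 3 groups, giving 6 Affymetrix arrays and 2 arrays per group, named here by culture (Control 1, Control 2 and so on). A group with heat shock alone was not analysed here, so HS+LPS against Control cannot tell the heat shock and the LPS apart.

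Interferon regulatory factors are transcription factors that share a DNA-binding domain recognising GAAA repeats, the core of the interferon-stimulated response element (ISRE). IRF3 waits in the cytoplasm of resting cells and is phosphorylated by the kinase TBK1 after TLR4 or nucleic acid sensors signal, which starts type I interferon and chemokine genes. Secreted interferon then acts through its receptor on ISGF3, a complex that holds STAT2 and IRF9, and ISGF3 induces further antiviral genes, among them Irf7. IRF1 is an activator induced by interferon and NF-kB signals, IRF2 binds the same sites and often opposes it, IRF5 acts with MyD88 downstream of Toll-like receptors, and IRF8 belongs mainly to myeloid and lymphoid cells. The arrays measure mRNA, not the phosphorylation or location of these proteins.

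Signals are linear intensities as deposited, with every array scaled to a trimmed mean of 100.001 (the highest and lowest 2% of values left out) and array medians of 11.9 to 14.4. The brightest of 27 bacterial control probe sets, which match no mouse transcript, served as each array's noise level and lay between 6.004 and 7.67. All 14 fibroblast markers were above it on all 6 arrays, with a summed signal of 35953 to 47872, and Col1a1 and Vim were among them. Of 24 macrophage, dendritic and other leukocyte markers on the array, 10 were above noise on every array and 3 (Itgam, Aif1 and Cd3e) on none. The 10 were Adgre1, Csf1r, Cd68, Lyz2, Cd14, C1qb, Laptm5, Fcer1g, Cd53 and Spi1. The summed signal of the 24 was 530 to 756 in Control, 488 to 757 in LPS and 459 to 614 in HS+LPS, lower in culture 2 than in culture 1 in each group. Of the endothelial and epithelial markers, 3 of 8 and 1 of 7 were at or under noise on every array. The epithelial sum was 55.3 and 67.9 in Control 1 and 2, 52.9 and 100.3 in LPS, and 90.5 and 135 in HS+LPS, and the endothelial sum 70.6 and 78.8, 44.2 and 104, and 78.5 and 109.9, so that both were highest in HS+LPS within each culture. Single markers also differed between HS+LPS and LPS. Limma called the fibroblast marker Pdgfrb (-0.81, adjusted p = 0.0277) and the leukocyte marker Cd14 (-1.496, adjusted p = 0.0306) lower. With the culture as a block, limma also called Pdgfra lower (-0.96, adjusted p = 0.00730) and the keratin gene Krt18 higher (1.25, adjusted p = 0.0464). The part of other cell types in the results on the factors and their lists was not tested.

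After heat shock and LPS, the transcripts of Irf1, Irf3, Irf7 and Irf9 stood lower than after LPS alone in both cultures, by 2.78-fold, 1.91-fold, 2.58-fold and 2.02-fold. LPS alone went with higher Irf1 (1.70-fold) and Irf7 (2.02-fold), while Irf3 differed by 0.02 on the log2 scale. Irf1, Irf3 and Irf9 were also lower after heat shock and LPS than in untreated cells. None of these differences passed an adjusted p of 0.05 in limma fitted without the culture. With the culture as a block, which compares the arrays of 1 embryo with each other, Irf1 was called higher with LPS, against 2.06% of all genes. The 4 genes were called lower in HS+LPS against LPS, against 12.6% of all genes. Irf1, Irf3 and Irf9 were called lower in HS+LPS against Control, against 12.1%. Several of these calls were lost with 1 array left out. In limma without an intensity trend, only those of Irf1 and Irf9 in HS+LPS against LPS remained. In bulk samples such as these, fewer cells making a transcript and less transcript per cell cannot be told apart.

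**Figure D1:**
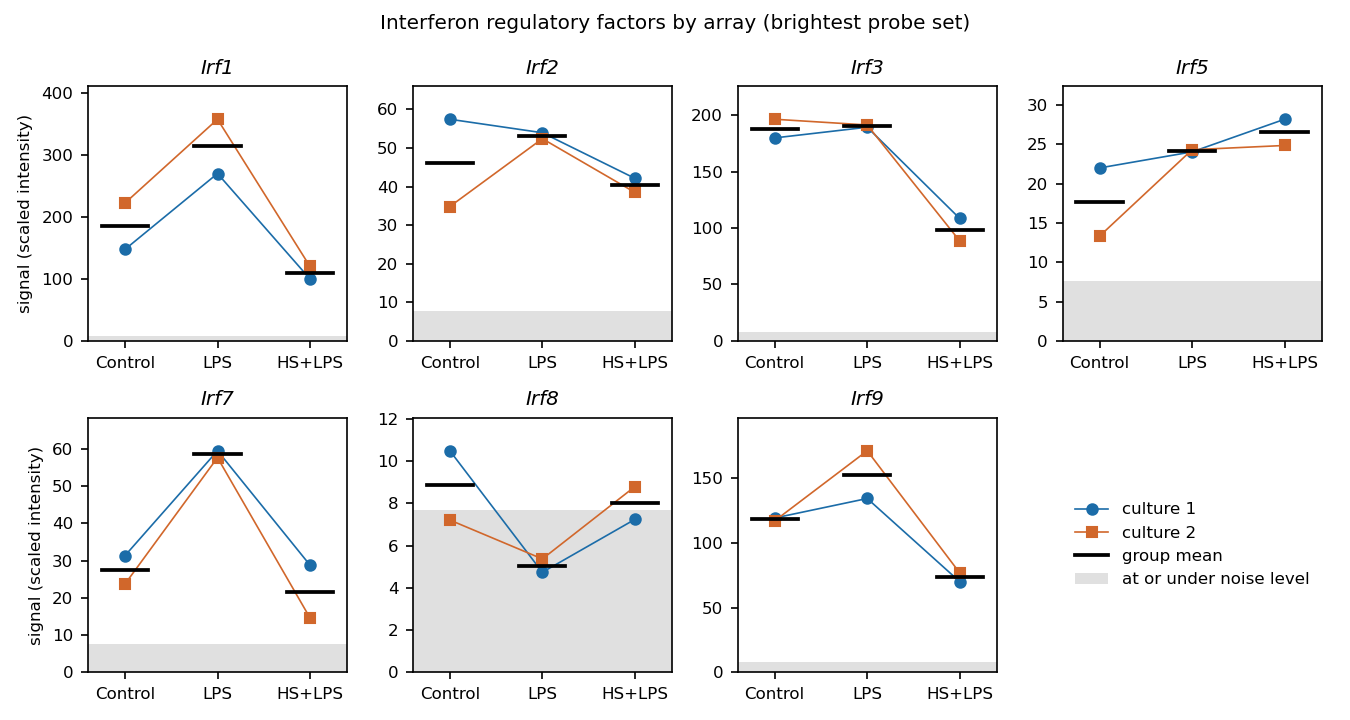
Signal (scaled intensity, linear axis from 0) of the brightest probe set of each interferon regulatory factor on the 6 arrays, in Control, LPS and HS+LPS. Circles are culture 1, squares culture 2, thin lines join arrays of a culture, thick bars are group means of 2 arrays, and grey marks signal at or under the noise level. Irf1, Irf3, Irf7 and Irf9 are lowest on the HS+LPS arrays within each culture, and Irf8 lies near the noise level.

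The members lie on 5 mouse chromosomes (RefSeq, build GRCm38.p6). Irf1 is at chr11:53770014-53778374, Irf2 at chr8:46739745-46847458, Irf3 at chr7:44997648-45002848, Irf5 at chr6:29526130-29541869, Irf8 at chr8:120736358-120756694 and Irf9 at chr14:55603985-55610030, all on the plus strand. Irf7 is at chr7:141263183-141266499 on the minus strand. Promoter windows of 300 bases, 250 before an annotated start and 50 from it, were found for all 7 members (10 windows) and searched on both strands. Among all 32851 RefSeq mouse windows of this length, 3.44% hold the ISRE core GAAANNGAAA, 8.30% the gamma-activated site TTCNNNGAA bound by STAT dimers, 8.46% the NF-kB site and 0.603% the heat shock element GAANNTTCNNGAA bound by heat shock factors.

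Of the 10 windows, 3 held any of these letters. The 250 bases before the start are shown for Irf1, whose transcript differed most between HS+LPS and LPS, for Irf3 and Irf9, which moved with it in both comparisons with HS+LPS, and for Irf2, whose window held the most matches. They are written 5′ to 3′ on the gene's strand, with matches in capitals.
Irf1 (chr11:53769764-53770013, plus strand): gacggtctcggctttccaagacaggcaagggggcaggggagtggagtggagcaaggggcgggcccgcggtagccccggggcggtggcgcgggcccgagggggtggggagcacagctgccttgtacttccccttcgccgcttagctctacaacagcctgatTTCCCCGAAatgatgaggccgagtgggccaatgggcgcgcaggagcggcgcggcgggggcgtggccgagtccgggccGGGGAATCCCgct
Irf2 (chr8:46739495-46739744, plus strand): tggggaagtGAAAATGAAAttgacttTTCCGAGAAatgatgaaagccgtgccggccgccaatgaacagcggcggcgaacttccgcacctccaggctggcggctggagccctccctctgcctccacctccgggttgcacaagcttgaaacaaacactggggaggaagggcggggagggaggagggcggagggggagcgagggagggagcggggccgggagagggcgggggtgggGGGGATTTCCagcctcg
Irf3 (chr7:44997398-44997647, plus strand): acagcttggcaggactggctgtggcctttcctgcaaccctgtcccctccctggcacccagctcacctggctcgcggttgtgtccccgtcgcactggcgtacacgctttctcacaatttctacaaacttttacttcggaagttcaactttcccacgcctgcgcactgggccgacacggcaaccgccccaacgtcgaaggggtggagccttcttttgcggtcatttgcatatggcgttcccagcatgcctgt
Irf9 (chr14:55603735-55603984, plus strand): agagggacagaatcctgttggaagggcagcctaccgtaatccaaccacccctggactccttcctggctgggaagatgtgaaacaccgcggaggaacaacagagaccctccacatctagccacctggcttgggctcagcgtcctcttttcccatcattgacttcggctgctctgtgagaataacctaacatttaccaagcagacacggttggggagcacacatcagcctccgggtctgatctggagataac
The Irf1 window has a gamma-activated site from -90 to -82, counted from the start, and an NF-kB site from -13 to -4 that reads as one on both strands. The Irf2 window has an ISRE core from -241 to -232, a gamma-activated site from -224 to -216 and an NF-kB site from -17 to -8, and none of these overlap. The first of the 2 Irf8 windows has 2 gamma-activated sites, from -171 to -163 and from -153 to -145. The windows of Irf3, Irf5, Irf7 and Irf9, the second Irf1 window and the second Irf8 window hold none of the 4 motifs as spelled. The Irf5 window and the second windows of Irf1, Irf8 and Irf9 lie wholly inside the annotated gene, so they do not show the sequence in front of the outermost start. The bases before the Irf7 start lie partly inside the annotated gene and partly in front of it. These are matches of letters only, and no binding was measured here.

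**Figure D2:**
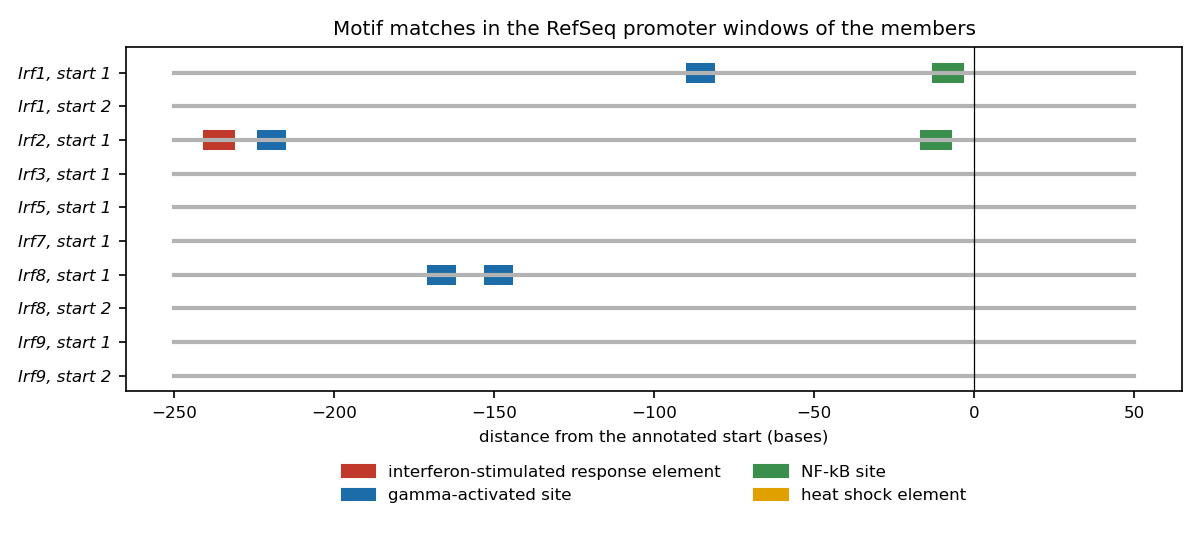
Motif matches (coloured boxes) along the 10 RefSeq promoter windows of the 7 members; the horizontal axis is the distance in bases from the annotated start, which is the vertical line. Matches lie in the first windows of Irf1, Irf2 and Irf8, and no window holds the heat shock element.

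IRF3, the factor that TLR4 signalling activates directly, was measured by 4 probe sets. The brightest, 1426111_x_at, read 179.7 and 196 in Control 1 and 2, 189 and 191 in LPS, and 108 and 88.5 in HS+LPS. Group means were 188 ± 11.7, 190.2 ± 1.40 and 98.5 ± 14.1 (SD, n = 2 each). Both HS+LPS arrays were below all 4 others, and the Control and LPS arrays overlapped. The LPS-against-Control difference was 0.02 on the log2 scale, with a 95% interval of -0.37 to 0.40, so differences within that range were not excluded. HS+LPS differed from LPS by -0.93 (SE 0.16, adjusted p = 0.0598 by limma; 0.00195 with the culture as a block). Against Control it differed by -0.92 (adjusted p = 0.0843 by limma; 0.00269 with the block).

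The suffix of the main Irf3 probe set marks it as one that may cross-hybridise with other transcripts, so the remaining probe sets bear on it. Probe set 1416898_a_at, of the gene-specific type, read 50.9 and 46.2 in Control, 46.7 and 54.6 in LPS, and 18.5 and 23.4 in HS+LPS. Both HS+LPS arrays were again lowest, and the difference from LPS was -1.16 (adjusted p = 0.0761 by limma; 0.00671 with the block) when it replaced the main one. Probe set 1435271_at read 24.1 and 19.0 in Control, 22.1 and 13.2 in LPS, and 10.9 and 10.7 in HS+LPS. Its difference from LPS was -0.54, in the same direction, with -0.84 in culture 1 and -0.24 in culture 2. That difference did not pass (interval -1.31 to 0.24, adjusted p = 0.536 by limma fitted to all probe sets above the filter). The fourth, 1438721_a_at, was near noise at 5.11 to 13.2 and its groups overlapped in each comparison.

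**Figure D3:**
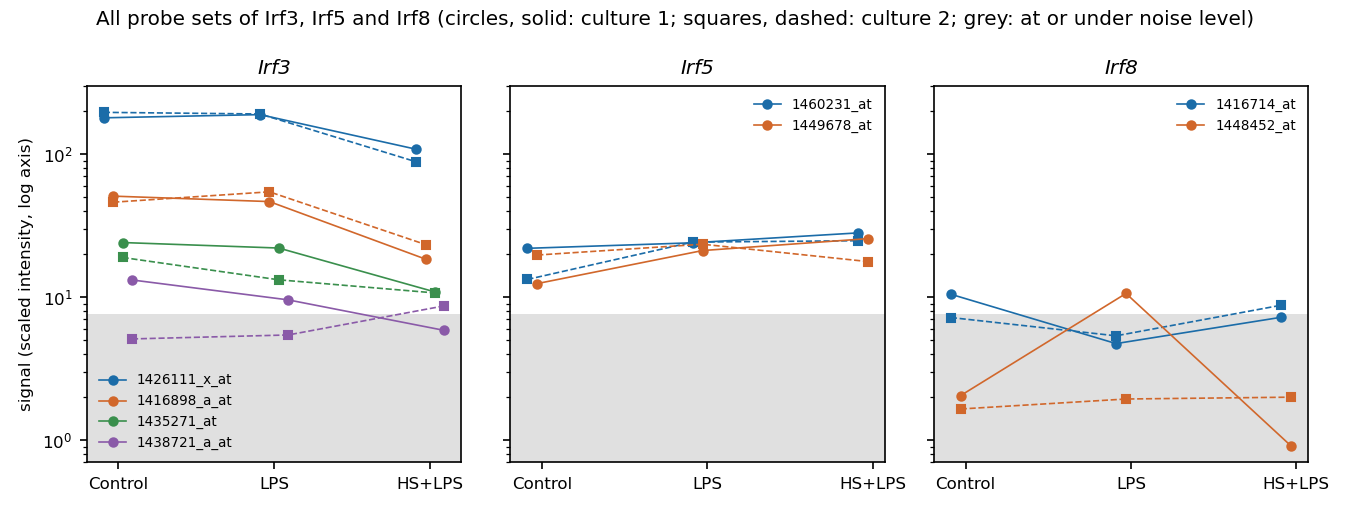
Signal (scaled intensity, log axis) of every probe set of Irf3, Irf5 and Irf8, the members with more than 1, in Control, LPS and HS+LPS. Circles with solid lines are culture 1, squares with dashed lines culture 2, colours are probe sets, and grey is at or under the noise level. The 3 brighter Irf3 probe sets are lowest in HS+LPS in both cultures, and the fourth is near noise.

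Irf7, a transcript that ISGF3 induces and whose protein widens the interferon response, had 1 probe set, 1417244_a_at. It read 31.4 and 23.7 in Control, 59.5 and 57.7 in LPS, and 28.8 and 14.6 in HS+LPS. Group means were 27.6 ± 5.39, 58.6 ± 1.31 and 21.7 ± 10.03 (SD, n = 2 each). Both LPS arrays were above all 4 others, while Control and HS+LPS overlapped. LPS differed from Control by 1.01 on the log2 scale (SE 0.33, adjusted p = 0.823 by limma; 0.0792 with the culture as a block). The HS+LPS arrays differed from LPS by -1.36 (SE 0.33, adjusted p = 0.121; 0.00684 with the block), and by culture the differences were -0.97 and -1.76. Between HS+LPS and Control the difference was -0.35 (interval -1.15 to 0.45).

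IRF9, the DNA-binding part of ISGF3, was read by probe set 1421322_a_at. Signals were 119 and 117 in Control, 134 and 171 in LPS, and 70.0 and 76.8 in HS+LPS, with means of 118 ± 1.55, 153 ± 26.0 and 73.4 ± 4.77 (SD, n = 2 each). No 2 groups overlapped, and in each culture the order was LPS, Control, HS+LPS. The difference between LPS and Control was 0.35 on the log2 scale (interval -0.08 to 0.78, and 0.04 to 0.66 with the block). It did not pass in either fit (adjusted p = 0.999 by limma and 0.261 with the block). HS+LPS differed from LPS by -1.01 (SE 0.18, adjusted p = 0.0624; 0.00176 with the block) and from Control by -0.66 (SE 0.18, adjusted p = 0.157; 0.0132 with the block).

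IRF1, an activator of the immunoproteasome, antigen presentation and guanylate-binding protein genes, was read by probe set 1448436_a_at. Signals were 148 and 223 in Control, 270.4 and 358 in LPS, and 100.04 and 120.2 in HS+LPS. Means were 185 ± 52.9, 314 ± 62.0 and 110.1 ± 14.3 (SD, n = 2 each). No groups overlapped, and culture 2 was brighter than culture 1 in each. LPS differed from Control by 0.77 on the log2 scale (SE 0.25, adjusted p = 0.828 by limma; 0.00885 with the culture as a block), with 0.86 in culture 1 and 0.68 in culture 2. The difference between HS+LPS and LPS was -1.48 (SE 0.25, interval -2.09 to -0.86, adjusted p = 0.0599; 0.000103 with the block), with -1.40 and -1.55 in the cultures. That between HS+LPS and Control was -0.71 (adjusted p = 0.248; 0.00474 with the block).

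IRF2, which can occupy the sites of IRF1 without activating them, had 1 probe set, 1418265_s_at, of a type that can read related transcripts together. It read 57.5 and 34.8 in Control, 54.0 and 52.4 in LPS, and 42.1 and 38.5 in HS+LPS. The HS+LPS arrays lay below both LPS arrays and between the 2 Control arrays. Between HS+LPS and LPS the difference was -0.37 (interval -1.02 to 0.27, adjusted p = 0.542 by limma; 0.253 with the block), and neither of the other comparisons passed.

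IRF5, a mediator of MyD88 signalling to cytokine genes, had 2 probe sets. The brighter, 1460231_at, read 21.98 and 13.3 in Control, 24.0 and 24.3 in LPS, and 28.2 and 24.8 in HS+LPS. The groups did not overlap, with HS+LPS highest. The largest difference, HS+LPS against Control, was 0.54 (interval -0.16 to 1.23, adjusted p = 0.427 by limma; 0.210 with the block). The second, 1449678_at, read 12.5 and 19.7, then 21.2 and 23.5, then 25.7 and 17.8 in the same order of groups, and its HS+LPS arrays overlapped with both other groups. Irf5 thus had its lowest mean in Control by both probe sets, and no comparison passed.

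IRF8, a factor of the myeloid and B-cell lineages, was close to noise. Probe set 1416714_at read 10.5 and 7.22 in Control, 4.74 and 5.37 in LPS, and 7.25 and 8.80 in HS+LPS. Both Control arrays, neither LPS array and 1 of 2 HS+LPS arrays were above the array's own noise level, so no fold is given. Probe set 1448452_at was under the filter at 0.910 to 10.6, with 1 array of 6 (LPS 1) above noise. No comparison passed.

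For LPS against Control, limma without the culture called 0 of 7 members, against 0.147% of all 12917 genes, and 2 members (Irf1 and Irf7) had an unadjusted p under 0.05, against 3.17% of genes on the higher side. With the culture as a block it called 1 member higher (Irf1), against 2.06% of genes. The groups did not overlap for 4 members on the higher side (Irf1, Irf5, Irf7 and Irf9), against 13.1% of genes, and for Irf8 on the lower side, against 18.3%. For Irf8 both LPS arrays were under noise, and its second probe set overlapped. The median of the 7 differences was 0.35, and that of all genes -0.05. Within the block, the Irf1 call was lost without Control 1 (adjusted p = 0.124), without LPS 1 (0.0821), without LPS 2 (0.0834) and, with all 6 arrays, in limma without an intensity trend (0.179).

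For HS+LPS against LPS, limma without the culture called 0 of 7, against 1.34% of genes in either direction, and 4 members had an unadjusted p under 0.05 on the lower side, against 11.8% of genes. With the block 4 of 7 (Irf1, Irf3, Irf7 and Irf9) were called lower, against 12.6% of genes. The groups did not overlap for 5 members on the lower side, those 4 and Irf2, against 28.8% of genes, and for Irf5 and Irf8 on the higher side, against 17.9%. The second probe sets of Irf5 and Irf8 overlapped there, and the main Irf8 probe set was under noise in both LPS arrays. The median of the 7 was -0.93, beside -0.05 over all genes, and Irf1, Irf7, Irf9 and Irf3 stood on the 1.19th, 1.44th, 3.38th and 4.34th percentiles of all differences. Within the block, the Irf7 call was lost without LPS 2 (adjusted p = 0.1005), the Irf3 call when its probe sets were averaged (-0.66, adjusted p = 0.0526), and both in limma without an intensity trend (Irf3 0.0557 and Irf7 0.0570).

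For HS+LPS against Control, limma without the culture called 0 of 7, against 0.178% of genes in either direction, and 3 members had an unadjusted p under 0.05 on the lower side, against 11.7% of genes. With the block 3 of 7 (Irf1, Irf3 and Irf9) were called lower, against 12.1% of genes. The same 3 did not overlap between the groups, against 31.1% of genes. Irf5 did not overlap on the higher side, against 14.3%, but its second probe set did overlap. This comparison shares its arrays with the other comparisons. Within the block, the calls of Irf1 and Irf3 were lost without Control 2 (adjusted p = 0.0955 and 0.0523) and that of Irf9 without Control 1 (0.148) or Control 2 (0.0636), and all 3 in limma without an intensity trend (0.0740, 0.0679 and 0.0829).

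**Figure D4:**
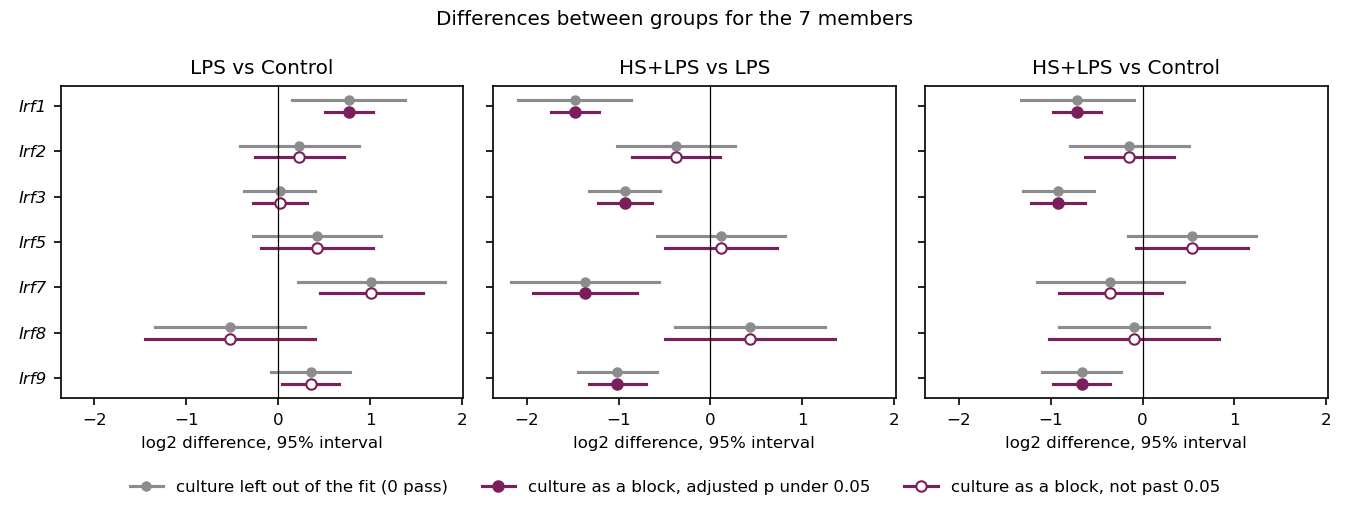
Log2 differences (horizontal axis) with 95% intervals for the 7 members in the 3 comparisons, from limma without the culture (grey) and with the culture as a block (purple; filled points have an adjusted p under 0.05). The block calls Irf1 higher in LPS against Control, Irf1, Irf3, Irf7 and Irf9 lower in HS+LPS against LPS, and Irf1, Irf3 and Irf9 lower in HS+LPS against Control.

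Interferon transcripts themselves gave little signal. Of 16 interferon genes, 9 were on the array with a single-symbol probe set and 1 passed the filter. Ifnb1, the type I interferon that IRF3 and NF-kB switch on, read 5.82 and 11.9 in Control, 0.992 and 7.50 in LPS, and 5.33 and 10.8 in HS+LPS, with overlapping groups and 1 of 2 arrays above noise in each, and was not tested. Ifna1, the gene tested, had a probe set with the same suffix as the main Irf3 one, so it may cross-hybridise with other transcripts. Its signal was 9.33 and 16.3 in Control, 13.97 and 11.8 in LPS, and 3.69 and 1.25 in HS+LPS. Both HS+LPS arrays were under noise. LPS and Control overlapped and differed by 0.04 on the log2 scale. The HS+LPS signal was at least 1.76-fold lower than that in LPS (adjusted p = 0.145 by limma and 0.0422 with the block).

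Upstream of the family, 20 of 24 listed sensing genes were tested. Over all genes, the fit with the culture as a block called 2.06% higher and 0.72% lower in LPS against Control, 6.32% and 12.6% in HS+LPS against LPS, and 5.09% and 12.1% in HS+LPS against Control, and limma without the culture called 0.828% lower in HS+LPS against LPS. These shares, from fits with an intensity trend, stand behind the counts of each list. With LPS alone, limma called 0 of the 20 sensing genes (5 higher with the block), and their median difference was 0.33. After heat shock and LPS, 4 were called lower than after LPS: Ikbke, the inducible kinase of IRF3 and IRF7 (-2.31, SE 0.22, adjusted p = 0.0158), Ifih1, which encodes the RNA sensor MDA5 (-1.93, adjusted p = 0.0184), Cd14, the LPS co-receptor (-1.496, adjusted p = 0.0306), and Ddx58, which encodes RIG-I (-1.11, adjusted p = 0.0327). With the block 10 were lower and none higher, and the list's median was -0.49. Cd14 is also on the leukocyte marker list, and its own fall is part of that list's summed signal, so the sum is no separate measure. Of the 14 tested markers of that list, 10 had differences below 0 and 4 above, with a median of -0.08 beside -0.05 for all genes.

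Tbk1, the constitutive IRF3 kinase, read 388 and 360 in Control, 463 and 469 in LPS, and 276 and 324 in HS+LPS. Its HS+LPS arrays were below the others and its difference from LPS was -0.63 (adjusted p = 0.0958 by limma; 0.00393 with the block). Ikbke read 61.5 and 68.5, then 194 and 186, then 43.0 and 29.2 in the same order. The LPS receptor gene Tlr4 moved otherwise, at 94.1 and 76.0 in Control, 128 and 117 in LPS, and 147 and 167 in HS+LPS, and was named after its values were seen. Its difference between HS+LPS and Control was 0.86 (adjusted p = 0.110 by limma; 0.00534 with the block). Against Control, 2 sensing genes were higher and 5 lower with the block, and 0 passed without it.

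Of the interferon receptors and JAK-STAT partners, 15 of 16 were tested. With LPS alone limma called 0 (3 higher with the block; median 0.32). Heat shock before LPS left 3 genes called, all lower than after LPS: Usp18, an interferon-induced brake on the type I receptor (-2.31, SE 0.27, adjusted p = 0.0248), Stat2 (-1.71, SE 0.20, adjusted p = 0.0248) and Ifnar1, a chain of that receptor (-0.92, SE 0.14, adjusted p = 0.0442). With the block 8 were lower and 1 higher, and the median was -0.63. Stat2, the partner of IRF9 in ISGF3, read 60.1 and 59.2 in Control, 88.3 and 75.1 in LPS, and 24.97 and 20.4 in HS+LPS, so both HS+LPS arrays were below all others. Its difference from Control was -1.28 (adjusted p = 0.0755 by limma; 0.00256 with the block), and 4 genes of the list were lower there with the block.

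Among 12 tested regulators and partners of IRF proteins, limma called 1 lower in HS+LPS against LPS, the ubiquitin ligase gene Trim21 (-1.61, SE 0.18, adjusted p = 0.0238). Trim21 read 66.5 and 76.5 in Control, 149 and 145 in LPS, and 41.4 and 50.7 in HS+LPS. With the block 4 of 12 were lower and none higher, with a median of -0.40. With LPS alone the list had 1 call with the block and 0 without, and in HS+LPS against Control 4 lower with the block and 0 without.

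Genes with ISRE-type control by IRF3, IRF7 or ISGF3 had a median difference of 1.65 with LPS, beside 0.35 for the 7 factors and -0.05 for all genes. Of 20 tested, limma called 3 higher with LPS: Ccl5 and Cxcl10, which encode chemokines for T cells, and Cmpk2, a mitochondrial nucleotide kinase gene. Cxcl10 read 11.2 and 7.85 in Control, 591 and 428 in LPS, and 35.5 and 46.6 in HS+LPS, a 39.6-fold difference with LPS (adjusted p = 0.00593). Ccl5 differed by 69.6-fold (adjusted p = 0.0170), with 1 Control array under noise. Cmpk2 was under noise in both Control arrays and at least 15.0-fold higher in LPS (adjusted p = 0.0304). With the block 13 were higher and none lower.

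Against LPS alone, limma called 11 of these 20 genes in HS+LPS, all lower, and 16 lower and 1 higher with the block (median -1.73). The 6 largest were Ccl5 (-5.17), Rsad2 (-4.70), Ifit1 (-3.85), Cxcl10 (-3.52), Rtp4 (-3.24) and Parp14 (-2.99), with adjusted p-values of 0.00581 to 0.0238. Ifit1, which encodes an inhibitor of viral RNA translation, read 63.8 and 42.4 in Control, 488 and 325 in LPS, and 31.9 and 18.5 in HS+LPS. Its HS+LPS arrays were below both Control arrays, with a difference of -0.999 (adjusted p = 0.234 by limma; 0.00257 with the block). Cxcl10 in HS+LPS stayed above both Control arrays, with a difference of 1.78 (adjusted p = 0.0681; 0.00153 with the block). Against Control the list had 3 genes higher and 5 lower with the block, 0 without, and a median of -0.13.

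Genes of the kind IRF1 controls, such as guanylate-binding proteins and antigen processing genes, gave 20 tested. Limma called 1 higher with LPS, Nos2, which encodes inducible nitric oxide synthase and was under noise on all Control and HS+LPS arrays and at 62.4 and 73.1 in LPS. Nos2 was at least 9.75-fold higher with LPS than in Control (adjusted p = 0.0170) and at least 9.28-fold lower in HS+LPS than in LPS (adjusted p = 0.00836). With the block 12 of the 20 were higher with LPS, with a median of 1.08.

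After heat shock and LPS, 5 of these genes were called lower than after LPS: Nos2, Gbp3 (-2.77, adjusted p = 0.0205), Gbp7 (-2.59, adjusted p = 0.0474), Vcam1 (-2.20, adjusted p = 0.0382) and Casp4 (-1.14, adjusted p = 0.0306), and 13 with the block. Gbp2, a guanylate-binding protein gene, read 67.3 and 166 in Control, 686 and 1273 in LPS, and 56.7 and 175 in HS+LPS. Culture 2 was brighter throughout, and the difference of -3.18 from LPS had an adjusted p of 0.0907 by limma and 6.2e-06 with the block. Psmb8, an immunoproteasome subunit, read 48.9 and 65.0, then 139 and 225, then 44.4 and 82.8, with a difference of -1.49 (adjusted p = 0.125; 0.00046 with the block). Against Control, HS+LPS had 1 gene of this list higher and none lower with the block, 0 without, and a median of -0.03, while Irf1 itself was lower there with the block.

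**Figure D5:**
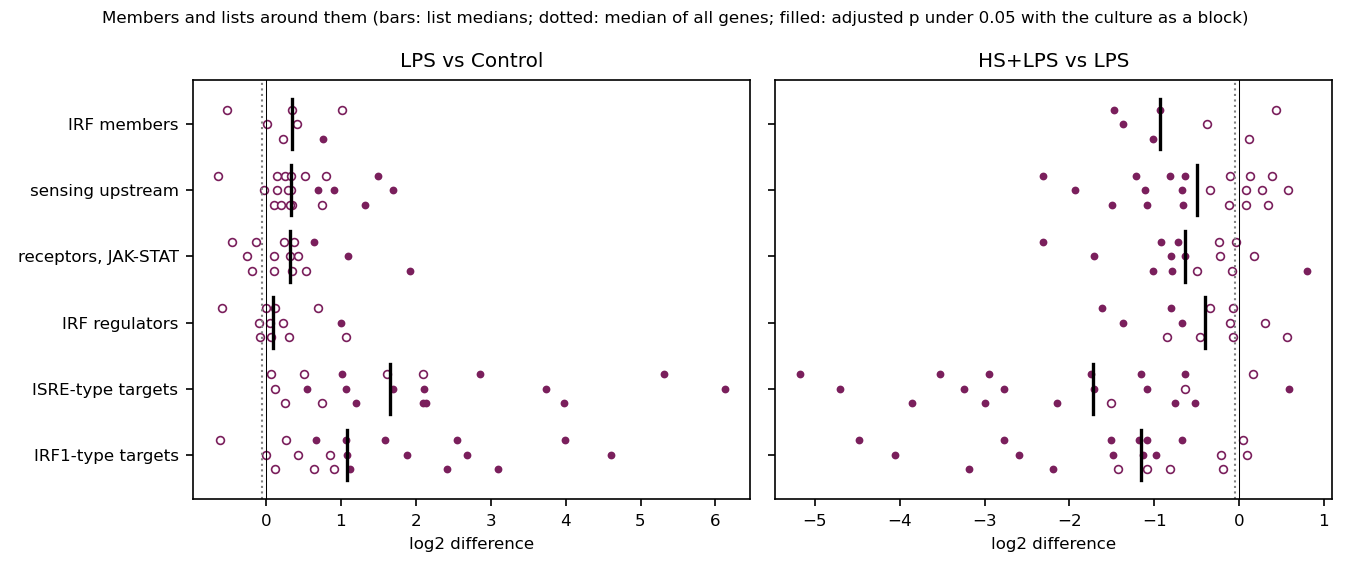
Log2 differences of each tested gene (points) among the members and in 5 lists around them, in LPS against Control and in HS+LPS against LPS; filled points have an adjusted p under 0.05 with the culture as a block, bars are list medians and the dotted line is the median of all genes. ISRE-type and IRF1-type targets have medians of 1.65 and 1.08 with LPS and of -1.73 and -1.16 in HS+LPS against LPS, beside 0.35 and -0.93 for the 7 members.

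Across the 6 arrays, which share cultures and groups, the members' log2 signals can be set beside each other as a description. Irf1 and Irf9 had the highest Pearson correlation of the 21 pairs (r = 0.94), followed by Irf3 and Irf9 (0.88) and Irf1 and Irf3 (0.80). Irf8, near noise, ran against Irf7 (-0.74) and Irf1 (-0.71).

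For the 3 members whose group means spanned at least 1 on the log2 scale, the 5 most similar genes were taken by correlation over the 6 arrays. For Irf1 these were Trim25 (r = 0.994), Npl, Tnfaip8, Pnrc1 and Mllt1, and 75 genes had r above 0.95. For Irf7 they were Ero1a (0.998), Ninj1, Nipal4, Mycl and Phf11d, among 64 such genes, and for Irf9 Nol12 (0.998), Nup50, Shprh, Traf3ip2 and Mitf, among 114. Trim25, a ubiquitin ligase that activates RIG-I, read 292 and 396 in Control, 405 and 530 in LPS, and 234 and 257 in HS+LPS, following the order of Irf1 in both cultures.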

How the data were processed

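The deposited value table holds linear intensity values of 6 Affymetrix Mouse Genome 430 2.0 arrays. The authors' software is not given in the sources used here, and how background was treated is unknown. Probe sets were named from the platform annotation: of 45101, 34958 have 1 gene symbol, 932 several and 9211 none, and 64 controls were left out. Intensities were taken as log2(intensity + 3.37), the pseudocount being the 25th percentile of all values, so that folds of low genes are understated. A filter at the 40th percentile of mean log2 signal removed dim probe sets, and the brightest per gene was kept (12917 genes). Groups were compared with limma 3.58.1 in R 4.3.3 (lmFit, eBayes with an intensity trend, Benjamini-Hochberg over all genes, adjusted p under 0.05), all 3 groups sharing 1 estimate of the spread. The fit without the culture was tested on simulated data drawn without a culture effect. The fit with the culture as a block was not tested in this way.

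The reported fit has no block, and intervals in the text are from limma without the block unless marked. Per the labels, arrays with 1 number share an embryo, and their deviations from the group means correlate (0.62, 0.57 and 0.54), so the numbers pair the arrays and the blocked values are printed beside results. With 2 cultures, the number of arrays limits precision. A probe set at or under noise on all arrays of a group has only a bound there. "At least" folds set the brighter group's mean against the dimmer group's noise levels, or its own signals where higher, on the log2 scale.

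All 7 members are named, with the genes limma called in each list (the 6 largest where more than 6 were called), Ifnb1, Stat2, Tbk1, Cxcl10, Ifit1, Gbp2 and Psmb8, and the 5 genes most correlated with each member spanning at least 1. An item that the rule also names is not reported here. Members and lists were chosen with earlier results of these data known. Lists are described by counts and medians, without a set test. Promoter sequences are from RefSeq (GRCm38.p6).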

Additional observations from a re-analysis of the deposited data

How the results depend on the processing

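With 2 arrays per group, no member was called under any alternative that left the culture out of the fit. The culture number as a replicate block moved the members called from 0 to 1 in LPS against Control, to 4 in HS+LPS against LPS and to 3 in HS+LPS against Control, and all genes called from 19 to 359, from 173 to 2443 and from 23 to 2219. Alternatives combining the block with 1 further choice were added after the data were seen. In HS+LPS against LPS they called 4 members, except 3 with the mean over probe sets, 2 without an intensity trend and 3 to 4 with 1 array left out. In HS+LPS against Control they called 3, except 0 without the trend and 0 to 3 with 1 array left out. In LPS against Control they called 1, except 2 with a pseudocount of 16 or with arrays centred on their medians, where Irf7 joined Irf1, 0 without the trend, and 0 to 2 with 1 array left out. With the block and without the trend, all genes called fell to 11 in LPS against Control, 443 in HS+LPS against LPS and 18 in HS+LPS against Control. The blocked counts and shares of all genes given above are from the fit with the trend. The cause of these losses was not tested.

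Without the block, the genes called fell to 5, 84 and 13 in limma without an intensity trend, and to 0 to 4, 8 to 77 and 8 to 14 with 1 array left out, in the same order of comparisons. In HS+LPS against Control they rose to 58 with a pseudocount of 16, 37 with a filter at the 60th percentile and 59 with median centring, which put 86.4% of calls on the higher side, against 95.7%.

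Direction turned only for differences that no fit called. In LPS against Control, Irf2 ranged from -0.11 (without Control 2; -0.065 with the block) to 0.57 with 1 array left out, and Irf3 from -0.044 (without Control 1; -0.11 with the block) to 0.080. Irf3 was also at -0.087 with the mean over probe sets, with or without the block, and at -0.029 with the block and without LPS 2. In HS+LPS against Control, Irf2 ranged from -0.48 to 0.19 (without Control 1; 0.15 with the block), Irf7 from -0.77 to 0.069 (without HS+LPS 2) and Irf8 from -0.29 to 0.0063 (without HS+LPS 1; 0.077 with the block). In HS+LPS against LPS, Irf5 turned to -0.083 with the block and without LPS 1. Irf2 could not be tested with gene-specific probe sets only, having none, and Irf8 fell under the filter in some alternatives.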
